A study of Mus musculus with 8 samples.

Results

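The genes described here are 10 that encode the ligands and receptors of 3 receptor tyrosine kinase systems, and all 10 were found among the 56953 gene identifiers of every library. They were taken by symbol from a list of 6 ligands (Pdgfa, Pdgfb, Pdgfc, Pdgfd, Hgf and Kitl) and 4 receptors (Pdgfra, Pdgfrb, Met and Kit). All 10 passed the filter on low counts, which kept 15669 genes. The study compared whole liver RNA from 4 HSC-PCK1-KO mice, in which Pck1 (encoding cytosolic phosphoenolpyruvate carboxykinase) was deleted in hepatic stellate cells, with that from 4 wild-type controls. Every mouse was male and adult. All had eaten CDHFD, a high-fat chow without choline that brings on steatohepatitis with fibrosis, for 8 weeks. The sources used here name neither the strain, the exact age nor the Cre driver of the deletion.

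Platelet-derived growth factors (PDGFs) are dimers that bring PDGF receptor chains together. PDGF-A and PDGF-C act mainly through the alpha receptor, and PDGF-B and PDGF-D through the beta receptor. In liver the beta receptor marks stellate cells and other pericytes, and PDGF-B is among the strongest known mitogens of activated stellate cells. Hepatocyte growth factor (HGF) is made by stellate and endothelial cells and acts on MET, the receptor carried by hepatocytes and bile duct cells. KIT ligand, also called stem cell factor, is a membrane-bound or shed cytokine. It acts on KIT, the receptor of mast cells and blood progenitors, which mouse sinusoidal endothelium near the central vein also carries.

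Kitl and Pdgfd were the genes of the 10 whose libraries did not overlap between genotypes, against 1.53% of all genes tested. Of the 7 pairs, Kitl and Kit, Pdgfc and Pdgfra, and Pdgfd and Pdgfrb had ratios that did not overlap. Each of these ratios had an exact two-sided permutation p of 0.0286, and 0.0667 after Benjamini-Hochberg adjustment over the 7 pairs. None thus passed 0.05 after adjustment. A share of non-overlapping ratios among other genes was not worked out, and pairs that share a gene are not independent. The 300 bases around the annotated transcription start (250 before and 50 after, RefSeq, GRCm38.p6) are shown for Kitl and its receptor gene Kit. They are also shown for Pdgfd and Pdgfc, the ligand genes of the other pairs without overlap. Capitals mark matches on either strand to the GC box GGGCGG, the TATA box TATAAA, the TEAD site GGAATG and the AP-1 site TGANTCA. All 4 windows lie on the plus strand, Kitl at chr10:100015571-100015870, Kit at chr5:75574737-75575036, Pdgfd at chr9:6168236-6168535 and Pdgfc at chr3:81036166-81036465.
Kitl: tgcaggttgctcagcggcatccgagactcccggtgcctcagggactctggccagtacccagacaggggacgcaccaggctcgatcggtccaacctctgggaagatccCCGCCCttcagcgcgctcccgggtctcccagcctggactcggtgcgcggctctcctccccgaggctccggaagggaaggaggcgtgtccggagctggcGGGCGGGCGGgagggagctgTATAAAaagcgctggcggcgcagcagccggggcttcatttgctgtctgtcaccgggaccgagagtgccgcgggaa
Kit: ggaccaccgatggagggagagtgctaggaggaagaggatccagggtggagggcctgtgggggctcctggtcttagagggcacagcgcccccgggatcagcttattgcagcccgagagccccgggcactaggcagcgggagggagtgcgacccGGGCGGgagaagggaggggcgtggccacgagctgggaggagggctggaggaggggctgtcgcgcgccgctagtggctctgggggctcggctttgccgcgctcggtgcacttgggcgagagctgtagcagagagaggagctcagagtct
Pdgfd: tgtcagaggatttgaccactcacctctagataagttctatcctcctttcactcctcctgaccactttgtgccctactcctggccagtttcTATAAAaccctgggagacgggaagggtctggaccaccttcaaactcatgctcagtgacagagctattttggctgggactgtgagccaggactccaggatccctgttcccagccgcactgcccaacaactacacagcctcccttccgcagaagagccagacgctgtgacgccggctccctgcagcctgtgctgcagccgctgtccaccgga
Pdgfc: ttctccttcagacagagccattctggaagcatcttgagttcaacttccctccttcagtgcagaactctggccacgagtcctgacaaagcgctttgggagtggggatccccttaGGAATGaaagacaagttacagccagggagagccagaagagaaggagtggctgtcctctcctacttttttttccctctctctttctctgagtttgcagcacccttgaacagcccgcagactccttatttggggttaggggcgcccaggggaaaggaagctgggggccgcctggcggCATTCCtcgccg

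The Kitl window had 3 GC box matches, of which 2 overlap each other, and 1 TATA box match. The Kit window had 1 GC box match, the Pdgfd window 1 TATA box match and the Pdgfc window 2 TEAD matches. Of 32851 annotated windows of this length, 35.7% held a GC box match, 13.6% a TATA box match, 14.7% a TEAD match and 7.81% an AP-1 match. G and C made up 68.7% of the Kitl window and 69.0% of the Kit window, against 56.7% for Pdgfd, 55.0% for Pdgfc and a median of 52.7% over all windows. The matches describe these letters alone and were not linked to the expression values.

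Library totals ranged from 44695439 to 49477255 counts. CPM here means counts divided by the TMM-scaled library size. The 10 hepatocyte markers checked summed to 92367 to 111492 CPM in HSC-PCK1-KO libraries, against 93042 to 113810 CPM in control libraries. Pck1 itself had 339 to 948 CPM in HSC-PCK1-KO libraries, against 551 to 2012 CPM in control libraries, and as hepatocytes express it strongly these values do not check the stellate cell deletion. HSC-PCK1-KO replicate 1 had the highest share of counts from mitochondrial genes, 8.31%, where the lowest library had 6.69%. That library was also the lowest of the 8 for 6 of the 10 genes, and control replicate 4 was the highest for 4 of them.

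None of the 10 genes passed an adjusted p of 0.05 in the edgeR quasi-likelihood comparison of HSC-PCK1-KO with control, where 0% of all 15669 genes passed. At an unadjusted p under 0.05 there were 2 of the 10, Kitl on the lower side and Pdgfd on the higher side, against 2.36% of all genes tested (1.34% lower and 1.02% higher). Kitl was under 0.05 in all 15 alternative fits and Pdgfd in 5 of them, with unadjusted p up to 0.123 in the other 10, so the count rests on the setting for Pdgfd. The groups did not overlap in the same 2 genes, against 1.53% of all genes (0.811% lower and 0.721% higher). Log2 fold changes were negative for 6 of the 10 and positive for 4, against 51.8% of all genes negative. Their median was -0.097, beside -0.0055 over all genes tested. The 95% interval of the main fit, which is not adjusted for the number of genes, excluded a 2-fold change in either direction for all 10 genes. For Kitl and Pdgfb the exclusion was narrow, with lower bounds of 0.508 and 0.514 times the control level, and it did not hold in every alternative fit. The log2 fold change of Pdgfb was -0.58 (SE 0.27) without HSC-PCK1-KO replicate 4. That of Kitl was -0.71 (SE 0.16) without control replicate 1. At these SEs a 2-fold fall is not excluded. The interval of the main fit excluded a 1.5-fold change in either direction for 5 of the 10, Pdgfa, Pdgfc, Pdgfra, Hgf and Met. For Pdgfc and Pdgfra this too depended on the libraries. Their log2 fold changes were 0.28 (SE 0.16) without control replicate 4 and -0.30 (SE 0.16) without control replicate 2.

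**Figure D1:**
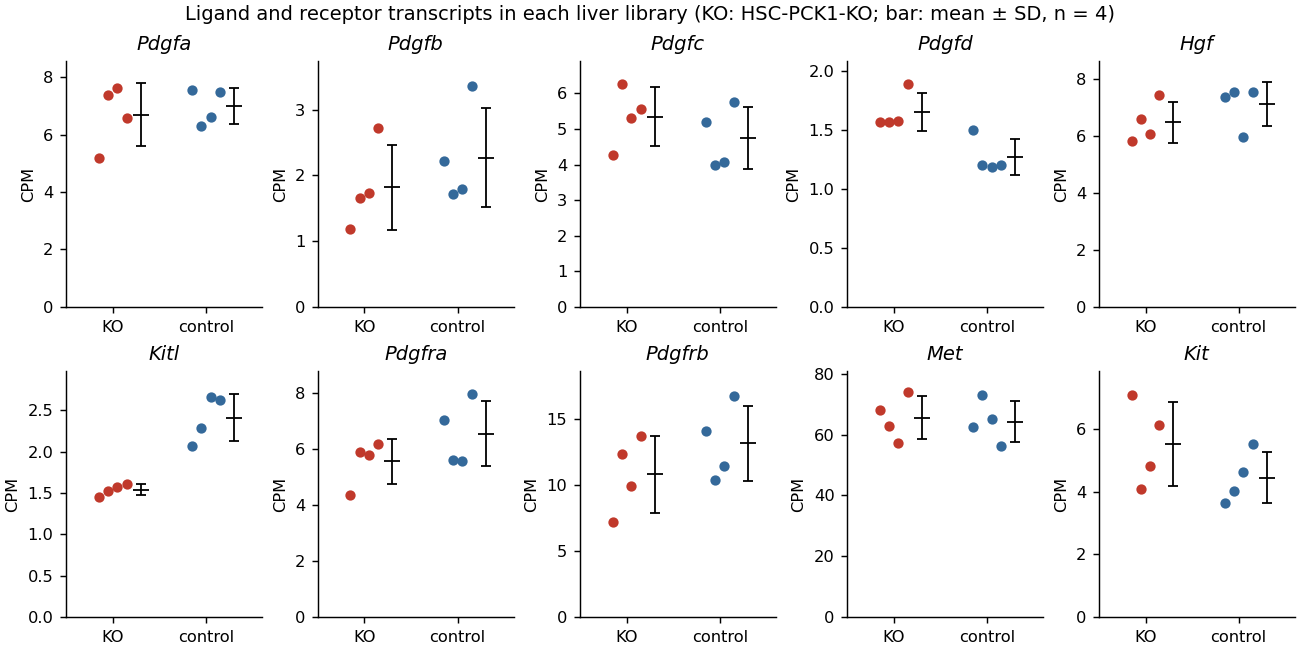
CPM of each ligand and receptor gene in each library, on linear axes that start at 0, with HSC-PCK1-KO (KO) on the left and control on the right of each panel and bars for mean ± SD of 4 libraries. The 4 Kitl values of HSC-PCK1-KO lie between 1.45 and 1.61 CPM, under all 4 control values.

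Kitl, the gene for KIT ligand (ENSMUSG00000019966.19, chromosome 10), had 1.45, 1.53, 1.58 and 1.61 CPM in HSC-PCK1-KO replicates 1 to 4, against 2.07, 2.29, 2.66 and 2.62 CPM in control replicates 1 to 4. Every HSC-PCK1-KO library lay under every control library, and the HSC-PCK1-KO values were close together. The means were 1.54 ± 0.068 CPM in HSC-PCK1-KO livers, against 2.41 ± 0.283 CPM in control livers (SD, n = 4 each). The log2 fold change was -0.64 (SE 0.15), a level 0.640 times that of control with a 95% interval from 0.508 to 0.805 times. The adjusted p in the edgeR quasi-likelihood test was 0.9998, although the unadjusted p of 0.00145 was the 9th smallest of the 15669. In whole liver, fewer cells of a type and less RNA per cell cannot be told apart.

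Leaving out any 1 library kept the log2 fold change of Kitl between -0.71 and -0.59. Its adjusted p was 0.335 in DESeq2, the lowest over the 15 alternative fits, and the highest was 0.99998. Markers of the mesothelium, the cell layer on the liver surface, moved in the same direction as Kitl. The log2 fold change was below 0 in all 8 of them, and its median was -1.24. Of these 8, 5 had an unadjusted p under 0.05 in edgeR, against 2.36% of all genes tested, and none passed the adjusted threshold. The list was chosen with earlier results of these data known. The summed level of the 8 markers was 3.19, 4.16, 5.17 and 5.95 CPM in HSC-PCK1-KO replicates 1 to 4. Kitl had 65, 76, 76 and 79 counts in these libraries, too close together to be ordered. The sum was 14.4, 6.91, 6.28 and 14.6 CPM in control replicates 1 to 4, where Kitl was lowest in replicate 1 and highest in replicate 3. None of the 8 was at 0 in all libraries. Krt19, of this list, is also made by bile duct cells. Their part in the Kitl difference was not tested. Of 12 quiescent stellate cell markers, all tested, 9 lay below 0, at a median log2 fold change of -0.12 and a summed level of 437 to 499 CPM in HSC-PCK1-KO libraries, against 480 to 535 CPM in control libraries.

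Kit, the receptor gene, lay on the other side of 0. It had 7.10, 4.10, 4.82 and 6.14 CPM in HSC-PCK1-KO replicates 1 to 4, against 3.63, 4.03, 4.63 and 5.53 CPM in control replicates 1 to 4. The groups overlapped, and HSC-PCK1-KO replicate 1 was the highest library. Kit had a log2 fold change of 0.31 (SE 0.19), with an adjusted p of 0.9998 in the edgeR quasi-likelihood test, and was 0.17 without that library. Of 9 mast cell markers, 1 passed the filter on low counts, and Tpsab1 and Mrgprb1, a tryptase and a mast cell receptor, were at 0 in every library. The summed level of the 9 was 2.19 to 3.35 CPM in HSC-PCK1-KO libraries, against 2.41 to 3.12 CPM in control libraries. Nearly all of it came from Hdc, the gene for histidine decarboxylase, which other cell types also make, with 2.98 ± 0.557 CPM in HSC-PCK1-KO livers, against 2.65 ± 0.301 CPM in control livers (SD, n = 4 each). Of 9 erythroid and progenitor markers 6 were tested, 3 with a negative and 3 with a positive log2 fold change. The 9 summed to 158 to 306 CPM in HSC-PCK1-KO libraries, against 191 to 278 CPM in control libraries, and were highest in HSC-PCK1-KO replicate 1. Nearly all of this sum came from the erythroid genes Alas2, Hba-a1 and Hbb-bs, so it says little of progenitors. The progenitor genes Cd34 and Mpo averaged 1.73 and 0.0428 CPM in HSC-PCK1-KO livers, against 2.18 and 0.0609 CPM in control livers. Of 7 genes of central vein endothelium, all tested, 5 lay above 0, at a summed level of 23.8 to 29.5 CPM in HSC-PCK1-KO libraries, against 20.1 to 29.4 CPM in control libraries. The part of these cells in the Kit values was not tested.

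The log2 ratio of Kitl to Kit, which does not depend on the scaling between libraries, averaged -1.79 ± 0.38 in HSC-PCK1-KO and -0.86 ± 0.13 in control libraries (SD, n = 4 each). It ranged from -2.26 to -1.40 in HSC-PCK1-KO and from -1.06 to -0.79 in control libraries, so the groups did not overlap. The difference of -0.92 had an exact two-sided permutation p of 0.0286, the smallest that 4 against 4 can give, and 0.0667 after Benjamini-Hochberg adjustment over 7 pairs. The ratio holds the Kitl values already given and is not separate evidence for them. A correlation of Kitl with Kit over the 8 libraries was among the 7 pairs adjusted together, but its value is not given, since the libraries part by genotype on Kitl and 4 in each are too few to test the relation within a genotype.

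Among the PDGF ligands, Pdgfd, which encodes a ligand secreted in latent form, stood higher in HSC-PCK1-KO. It had 1.56, 1.57, 1.58 and 1.89 CPM in HSC-PCK1-KO replicates 1 to 4, against 1.502, 1.20, 1.18 and 1.21 CPM in control replicates 1 to 4. The groups did not overlap, but the lowest HSC-PCK1-KO library and the highest control library were close together. The means were 1.65 ± 0.160 CPM in HSC-PCK1-KO livers, against 1.27 ± 0.152 CPM in control livers (SD, n = 4 each). The log2 fold change was 0.37 (SE 0.17, 95% interval 0.0048 to 0.74), with an adjusted p of 0.9998 in the edgeR quasi-likelihood test. Without HSC-PCK1-KO replicate 4 it was 0.30, and without control replicate 1 it was 0.46.

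Pdgfc, the gene for the other latent ligand, had 4.27, 6.28, 5.30 and 5.55 CPM in HSC-PCK1-KO replicates 1 to 4, against 5.20, 3.99, 4.06 and 5.76 CPM in control replicates 1 to 4. Both groups covered much the same range. Its log2 fold change was 0.17 (SE 0.16), with an adjusted p of 0.9998 in the edgeR quasi-likelihood test. It was 0.26 without HSC-PCK1-KO replicate 1 and 0.28 without control replicate 4, but it was 0.084 with HSC-PCK1-KO replicate 2 left out, 0.095 without control replicate 2 and 0.11 without control replicate 3. Pdgfa, the gene for the chain that binds the alpha receptor as PDGF-AA, averaged 6.69 ± 1.10 CPM in HSC-PCK1-KO livers, against 6.98 ± 0.622 CPM in control livers (SD, n = 4 each). Its HSC-PCK1-KO libraries ran from 5.18 to 7.62 CPM and its control libraries from 6.30 to 7.55 CPM, and its log2 fold change of -0.061 turned to 0.041 without HSC-PCK1-KO replicate 1. An antisense transcript, 6330403L08Rik, overlaps 26.1% of the annotated exon bases of Pdgfa and stood at 1.41 ± 0.221 CPM in HSC-PCK1-KO livers, against 1.75 ± 0.394 CPM in control livers. The libraries were strand-specific, but the strand setting of the counting is unknown here, so reads of the pair may not be fully separated. Smaller overlaps were annotated for Hgf, Pdgfra and Pdgfc. Gm43489 covers 6.7% of the exon bases of Hgf on the same strand, where strand cannot separate reads. On the opposite strand, Gm42802 covers 4.55% of those of Pdgfra and Gm16000 2.89% of those of Pdgfc.

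Pdgfb, the gene for the chain that drives stellate cell proliferation, had 1.18, 1.65, 1.72 and 2.72 CPM in HSC-PCK1-KO replicates 1 to 4, against 2.21, 1.72, 1.80 and 3.35 CPM in control replicates 1 to 4. The groups overlapped, with replicate 4 highest in each. Its log2 fold change was -0.32 (SE 0.29), with an adjusted p of 0.9998 in the edgeR quasi-likelihood test. Leaving out control replicate 4 gave -0.067 and leaving out HSC-PCK1-KO replicate 4 gave -0.58, so single libraries set its size. Platelets and macrophages are among the known sources of this ligand. Of 8 platelet and megakaryocyte markers 3 were tested, and their summed level over all 8 was 4.57 to 5.51 CPM in HSC-PCK1-KO libraries, against 4.27 to 5.95 CPM in control libraries. The 12 markers of Kupffer cells and macrophages summed to 337 to 567 CPM in HSC-PCK1-KO libraries, against 360 to 620 CPM in control libraries, and their part in the Pdgfb values was not tested.

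Both PDGF receptor genes stood lower on average in HSC-PCK1-KO, within overlapping groups. Pdgfrb, the beta receptor gene of stellate cells, had 7.17, 12.4, 9.89 and 13.7 CPM in HSC-PCK1-KO replicates 1 to 4, against 14.0, 10.4, 11.4 and 16.8 CPM in control replicates 1 to 4. Pdgfra, the alpha receptor gene, had 4.36, 5.87, 5.80 and 6.18 CPM in HSC-PCK1-KO replicates 1 to 4, against 7.02, 5.59, 5.58 and 7.95 CPM in control replicates 1 to 4. In both genes HSC-PCK1-KO replicate 1 was the lowest library and control replicate 4 the highest. The log2 fold change was -0.29 (SE 0.21) for Pdgfrb and -0.24 (SE 0.15) for Pdgfra, each with an adjusted p of 0.9998 in the edgeR quasi-likelihood test. Without HSC-PCK1-KO replicate 1 they were -0.14 and -0.14, and without control replicate 4 -0.15 and -0.13. The summed level of 12 markers of activated stellate cells and myofibroblasts ranged from 85.6 to 155 CPM in HSC-PCK1-KO libraries, against 94.6 to 248 CPM in control libraries. Its lowest library was also HSC-PCK1-KO replicate 1 and its highest control replicate 4, and 10 of these 12 genes lay below 0, none passing the test. Their part in the receptor values was not tested.

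**Figure D2:**
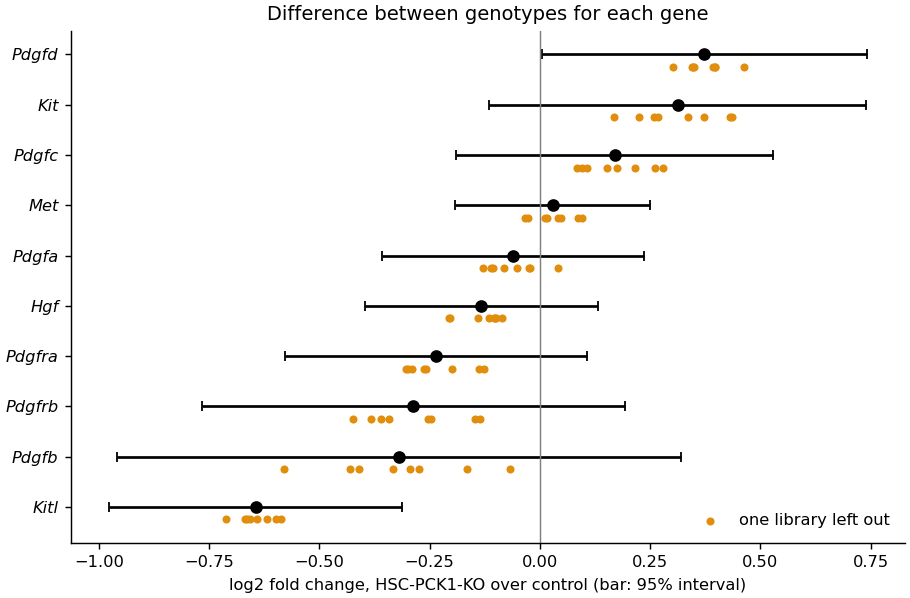
Log2 fold change of each gene, HSC-PCK1-KO over control, with its 95% interval (black) and the 8 values with 1 library left out (orange). The interval of Kitl lies wholly under 0 and that of Pdgfd just over 0, and the interval of each other gene crosses 0.

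The ratios of Pdgfc and Pdgfd to their receptors did not overlap between the 2 genotypes, but neither difference passed 0.05 after adjustment. The log2 ratio of Pdgfc to Pdgfra averaged -0.05 ± 0.11 in HSC-PCK1-KO and -0.46 ± 0.02 in control libraries (SD, n = 4 each), a difference of 0.40. Its HSC-PCK1-KO values spanned -0.15 to 0.09 and its control values -0.48 to -0.43, with no overlap. Control libraries had 169 to 301 counts of Pdgfc and 237 to 415 of Pdgfra. At such counts, counting noise alone spreads a log2 ratio by more than the control SD. The narrow control range therefore understates how far this ratio varies. The log2 ratio of Pdgfd to Pdgfrb averaged -2.64 ± 0.34 in HSC-PCK1-KO and -3.31 ± 0.30 in control libraries (SD, n = 4 each), a difference of 0.67, again with no overlap. Each difference had an exact two-sided permutation p of 0.0286 and an adjusted value of 0.0667 over the 7 pairs. Each ratio holds gene values already given and is not separate evidence for them. Leaving out 1 library kept the Pdgfc to Pdgfra difference between 0.35 and 0.44 and that of Pdgfd to Pdgfrb between 0.51 and 0.77. The ratios of Pdgfa to Pdgfra, Pdgfb to Pdgfrb and Pdgfra to Pdgfrb overlapped between the genotypes, with differences of 0.16, -0.02 and 0.07 and exact permutation p of 0.171, 0.971 and 0.514. With 1 library left out, the Pdgfa to Pdgfra difference ran from 0.092 (without control replicate 4) to 0.22, and that of Pdgfra to Pdgfrb from 0.0034 (without HSC-PCK1-KO replicate 1) to 0.15 (without HSC-PCK1-KO replicate 4). Pairs that share a receptor are not independent of each other.

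**Figure D3:**
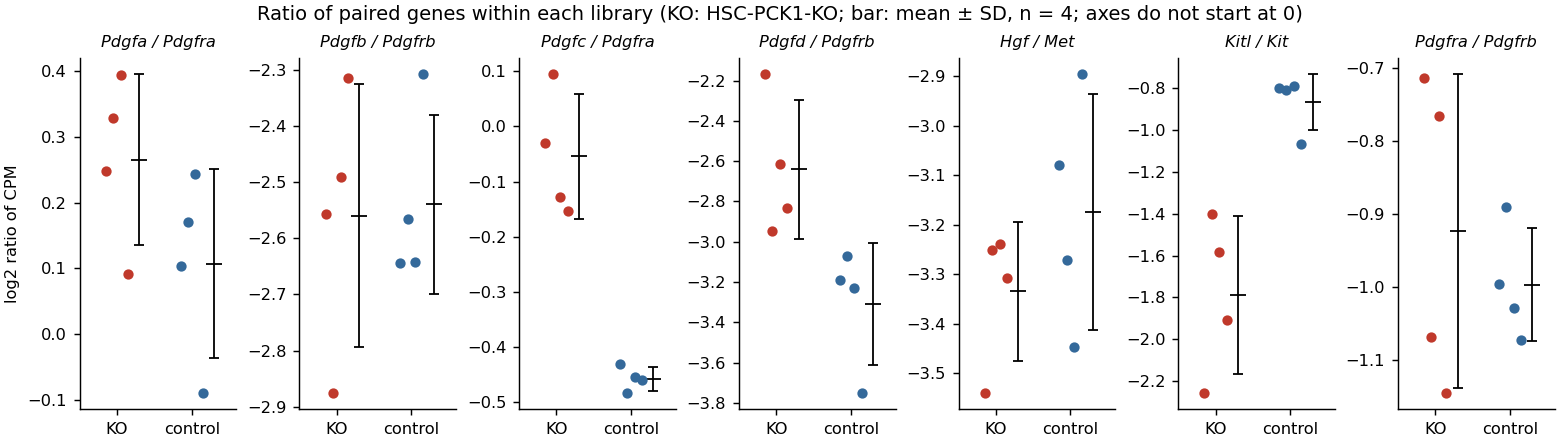
Log2 ratio of CPM between paired genes within each library, HSC-PCK1-KO (KO) left and control right, with bars for mean ± SD of 4 libraries; axes do not start at 0. The genotypes part for Pdgfc to Pdgfra, Pdgfd to Pdgfrb and Kitl to Kit, the difference being 0.40, 0.67 and -0.92, and none passed 0.05 after adjustment over the 7 pairs.

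Across the 8 libraries, Pdgfra and Pdgfrb levels moved together, with Pearson's r of 0.950 (exact permutation p = 0.000446, adjusted p = 0.00313 over 7 pairs) and Spearman's rho of 0.905 (exact permutation p = 0.00456, adjusted p = 0.0319). Without the 2 libraries farthest from the median of Pdgfra, HSC-PCK1-KO replicate 1 and control replicate 4, r was 0.775 (exact permutation p = 0.0431). Pdgfb moved with Pdgfrb, with r of 0.920 (exact permutation p = 0.00238, adjusted p = 0.00833) and rho of 0.810 (exact permutation p = 0.0218, adjusted p = 0.0762). Without replicate 4 of each genotype, the 2 libraries farthest out, r was 0.917 (exact permutation p = 0.0222). Pdgfb followed Pdgfra about as closely, with r of 0.908, a pair that was not among the 7 and was not tested. Its relation is thus not particular to Pdgfrb. Each r here pools both genotypes, and no relation was tested within a genotype. Pdgfa and Pdgfra had r of 0.802 (exact permutation p = 0.0210, adjusted p = 0.0490) and rho of 0.595 (exact permutation p = 0.132, adjusted p = 0.232), and r was 0.419 without HSC-PCK1-KO replicate 1 and control replicate 2 (exact permutation p = 0.422). For Pdgfa and Pdgfra, r was 0.532 without HSC-PCK1-KO replicate 1 alone (exact permutation p = 0.241), the lowest with 1 library left out. It was 0.798 without control replicate 2 alone (exact permutation p = 0.0415, adjusted p = 0.0968). The adjusted threshold was missed on leaving out any library but HSC-PCK1-KO replicate 3, so the relation is borderline. Pdgfc with Pdgfra had r of 0.582 (exact permutation p = 0.131, adjusted p = 0.229) and rho of 0.667 (exact permutation p = 0.0831, adjusted p = 0.194), and r without 2 libraries was 0.654. Pdgfd with Pdgfrb had r of -0.12 (exact permutation p = 0.783) and rho of -0.07 (exact permutation p = 0.882), both unchanged by adjustment, and r without 2 libraries was -0.32. The libraries part by genotype on Pdgfd, so this r mixes that split with any relation within a genotype. In each genotype 4 libraries are too few to test the relation.

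**Figure D4:**
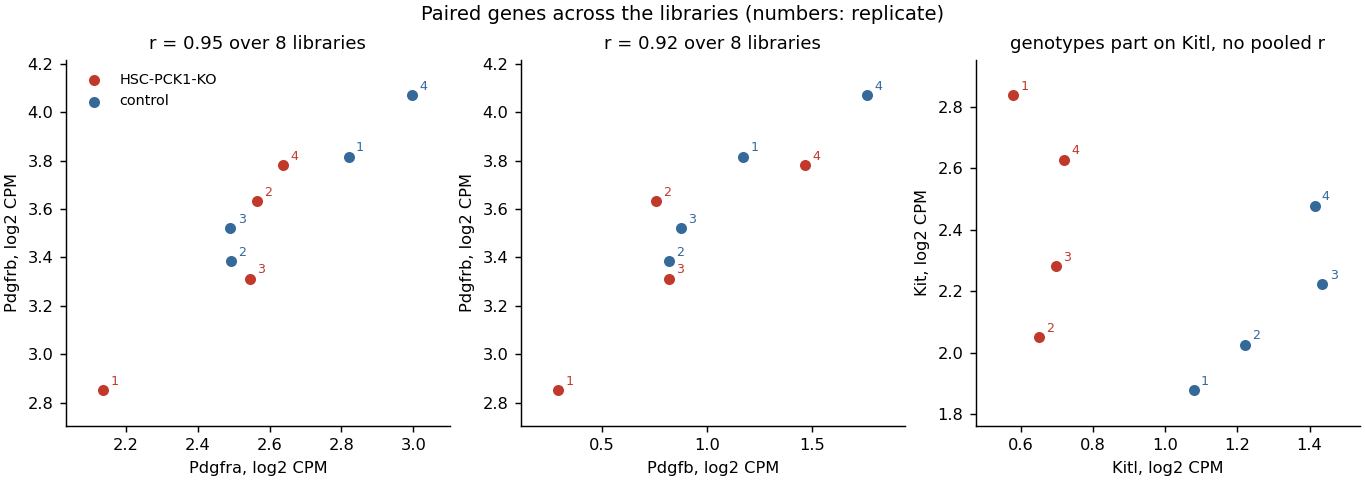
Log2 CPM of Pdgfrb against Pdgfra (left) and Pdgfb (middle) and of Kit against Kitl (right), 1 point a library, with its replicate number. HSC-PCK1-KO replicate 1 sits at the low end and control replicate 4 at the high end of the first 2 panels, and in the last panel the genotypes part along the Kitl axis.

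For Hgf and its receptor gene Met, the 95% intervals excluded a 1.5-fold difference between genotypes in either direction. Hgf had 5.81, 6.58, 6.05 and 7.44 CPM in HSC-PCK1-KO replicates 1 to 4, against 7.37, 7.52, 5.94 and 7.54 CPM in control replicates 1 to 4. Control replicate 3 lay well under the other control libraries and inside the HSC-PCK1-KO range. Hgf had a log2 fold change of -0.13 (SE 0.12), with an adjusted p of 0.9998 in the edgeR quasi-likelihood test. Leaving out HSC-PCK1-KO replicate 1 gave -0.086, and its value was -0.21 without HSC-PCK1-KO replicate 4 and -0.20 without control replicate 3. Met had 68.0, 63.0, 57.4 and 74.0 CPM in HSC-PCK1-KO replicates 1 to 4, against 62.6, 73.0, 65.2 and 56.4 CPM in control replicates 1 to 4. The groups covered the same range, and its 95% interval, 0.876 to 1.19 times the control level, was the narrowest of the 10. The log2 ratio of Hgf to Met averaged -3.33 ± 0.14 in HSC-PCK1-KO and -3.17 ± 0.24 in control libraries (SD, n = 4 each; exact permutation p = 0.314, adjusted p = 0.440 over 7 pairs). The difference of -0.16 ran from -0.25 without control replicate 3 to -0.068 without control replicate 4. Hgf and Met had r of 0.168 across the 8 libraries (exact permutation p = 0.672, adjusted p = 0.783) and rho of -0.10 (exact permutation p = 0.840, adjusted p = 0.882), and r was 0.465 without HSC-PCK1-KO replicate 1 and control replicate 3.

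Levels were compared between genes as CPM per kilobase of annotated exon (GENCODE M21), over all 8 libraries. Met was the highest at 8.46 ± 0.846, above the next gene in all 8 libraries with no overlap of ranges. Pdgfa at 2.19 ± 0.270 and Pdgfrb at 2.19 ± 0.537 followed and could not be ordered, Pdgfa being higher in 5 of 8 libraries. Pdgfc at 0.992 ± 0.167 and Hgf at 0.944 ± 0.107 came next and overlapped, both below the lowest Pdgfrb library. The last 5, which overlapped each with its neighbour, were Pdgfra at 0.603 ± 0.106, Kit at 0.561 ± 0.133, Pdgfb at 0.492 ± 0.166, Pdgfd at 0.464 ± 0.0786 and Kitl at 0.334 ± 0.0850 (SD, n = 8). The order of their means differed between genotypes, as a description alone, since neighbours overlapped over the 8 libraries and the order was not tested. In HSC-PCK1-KO livers the means ran from Kit at 0.622 through Pdgfra at 0.554, Pdgfd at 0.523 and Pdgfb at 0.437 down to Kitl at 0.261. In control livers they ran from Pdgfra at 0.652 through Pdgfb at 0.546, Kit at 0.5002 and Kitl at 0.408 down to Pdgfd at 0.404. Per kilobase, the receptor of HGF thus stood far above its ligand, while the level of Kitl was below that of Kit in both genotypes, at 0.261 against 0.622 in HSC-PCK1-KO and 0.408 against 0.5002 in control livers.

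The genes whose log2 CPM followed each member most closely were found by Pearson's r over the 8 libraries among 11522 genes, as a description, since with so many genes high values are common. No such genes are named for Kitl and Pdgfd, since the libraries part by genotype on both. Pdgfra was followed by Ltbp1, Col6a1 and Fbn1, all genes of extracellular matrix proteins, with r of 0.982, 0.980 and 0.977. Pdgfrb was followed by Pamr1, Timp2, a metalloproteinase inhibitor, and Il34, a ligand of the CSF1 receptor, with r of 0.981, 0.971 and 0.962. Pdgfb was followed by Cd74, H2-Aa and H2-Ab1, which encode the invariant chain and class II antigen-presenting molecules, with r of 0.987, 0.980 and 0.977. The first gene for each of the others was Dusp8 for Pdgfa, Map4k4 for Pdgfc, Nbea for Hgf, Zfp212 for Met and Gabarap for Kit, with r from 0.943 for Gabarap to 0.980 for Nbea. The points share their libraries, and any difference between them in genotype or cell makeup enters every pair.

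Genes that process the ligands or assist the receptors showed no shift that passed the test. Of 24 such genes 23 were tested, 16 with a negative and 7 with a positive log2 fold change, the median being -0.06, and none passed. Plxnb1, a semaphorin receptor that can associate with MET, averaged 61.3 ± 6.27 CPM in HSC-PCK1-KO livers, against 74.2 ± 8.76 CPM in control livers (SD, n = 4 each), a log2 fold change of -0.27 (SE 0.10) with an adjusted p of 0.9998 in edgeR. Hgfac, the gene for a serum protease that activates HGF, averaged 229 ± 26.2 CPM in HSC-PCK1-KO livers, against 257 ± 18.1 CPM in control livers. Lrp1, which encodes an endocytic co-receptor of the beta receptor, averaged 679 ± 35.9 CPM in HSC-PCK1-KO livers, against 754 ± 90.2 CPM in control livers. The genes for the plasminogen activators that cleave PDGF-C and PDGF-D had log2 fold changes of -0.35 for Plat and -0.05 for Plau, named after their values were seen.

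Signal transducers downstream of the receptors lay close to 0. All 43 adaptors and effectors were tested, 25 negative and 18 positive, the median log2 fold change being -0.02, and none passed. The genotypes had separate ranges for 1 of the 43, where 1.53% of all genes tested did not overlap, so that count is no result about the list. This gene, Sos1, encodes a Ras exchange factor and had 34.7 ± 2.22 CPM in HSC-PCK1-KO livers, against 31.4 ± 1.58 CPM in control livers (SD, n = 4 each) and a log2 fold change of 0.15 (SE 0.07, adjusted p = 0.9998 in edgeR). Nras, a Ras gene, and Sh2b3, which encodes an adaptor that restrains KIT signalling, had log2 fold changes of 0.12 and -0.12. Of 23 feedback and immediate early genes of the MAP kinase pathway 22 were tested, 8 negative and 14 positive, with a median of 0.05, and none passed. Dusp6, an ERK phosphatase that ERK signalling induces, averaged 53.7 ± 12.1 CPM in HSC-PCK1-KO livers, against 46.1 ± 7.44 CPM in control livers (SD, n = 4 each). Ier3 and Errfi1, an early response gene and a receptor feedback inhibitor, had log2 fold changes of 0.46 (SE 0.35) and -0.36 (SE 0.31).

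Of 16 related ligands and receptors, such as those of the VEGF and CSF1 families, 15 were tested, 10 negative and 5 positive, the median log2 fold change being -0.06, and none passed. Vegfa, the main endothelial growth factor gene, averaged 131 ± 12.4 CPM in HSC-PCK1-KO livers, against 150 ± 15.2 CPM in control livers (SD, n = 4 each). Vegfd and Csf1, genes for a lymphatic growth factor and a macrophage growth factor, had log2 fold changes of 0.27 and -0.22. Kitl, at -0.64, lay below every gene of these pathway lists but Mmp9, the gene for a matrix protease that can release KIT ligand in mouse bone marrow. Mmp9 stood at 0.467 CPM in HSC-PCK1-KO livers, against 0.754 CPM in control livers, a log2 fold change of -0.70 with an adjusted p of 0.9998 in edgeR, and was named after its value was seen.

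**Figure D5:**
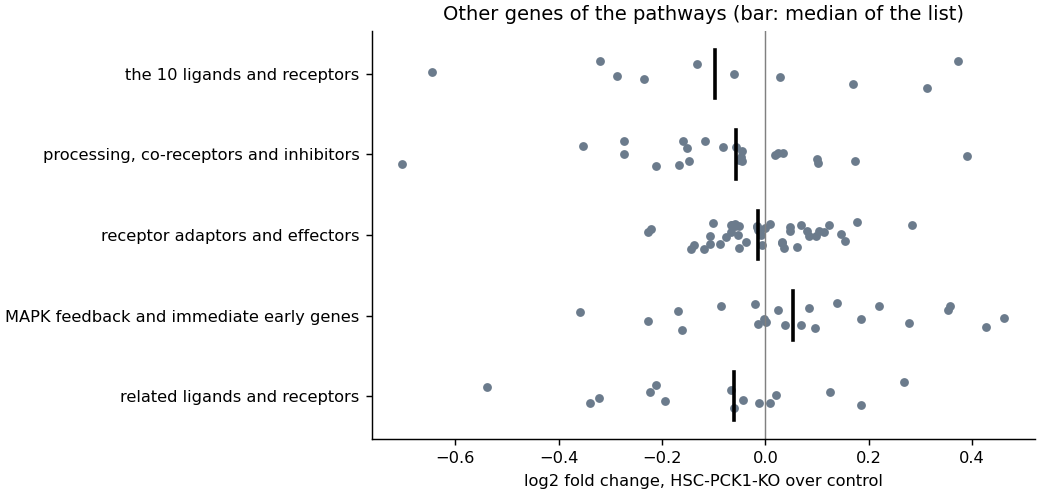
Log2 fold change, HSC-PCK1-KO over control, of every tested gene in the list of 10 and in 4 lists of pathway genes, with a bar at each median (vertical scatter has no meaning). The medians lie between -0.10 and 0.05, and Kitl at -0.64 and Mmp9 at -0.70 lie farthest to the left.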

How the data were processed

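Whole liver RNA from 8 male mice on a CDHFD, 4 HSC-PCK1-KO and 4 control, was sequenced from oligo(dT)-selected, strand-specific libraries with paired reads of 100 bases, per the labels' protocols. The authors deposited raw counts per gene, not normalized, and per the submitters' processing notes the build was GRCm39 and R 4.3.2 was used. The aligner, counting tool, annotation and strand setting are not stated there. Symbols came by identifier from GENCODE M21 (GRCm38), which named 52029 of 56953 identifiers. Exon lengths and promoters are from GRCm38, so no gene coordinates of the files' build are given.

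Genes were filtered with filterByExpr, scaled with TMM and tested with edgeR 4.0.16 in R 4.3.3 (quasi-likelihood F-test, robust, genotype as the only term), with Benjamini-Hochberg adjustment over 15669 genes and a threshold of 0.05. Standard errors and 95% intervals come from that fit. Log2 CPM used a prior count of 2. Ratios and correlations were tested by exact permutation (scipy 1.17.1), over 70 assignments for 4 against 4. Fits and permutations were tested on simulated data. As alternatives, upper quartile or RLE factors, no filter, a minimum of 1 CPM in 4 libraries, limma-voom with sample weights (limma 3.58.1), DESeq2 1.42.0, the replicate number as a block, a prior count of 0.5, and leaving out each library were tried.

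The 10 genes and the lists were chosen with earlier results of these data known. Named are the 10, the 3 genes of each pathway list with the smallest p among those of at least 1 CPM, and the 3 genes most like each of Pdgfra, Pdgfrb and Pdgfb. For Kitl and Pdgfd no like gene is named, as their libraries part by genotype, and for the rest of the 10 the first alone is given. Others were named after their values were seen. Predicted, mitochondrial and unnamed genes and pseudogenes were left out of the search for like genes. Libraries within a group differed by a chi-square per degree of freedom of 46.0 to 173, far above counting noise. Totals were 44695439 counts or more, and the SE of the log2 fold changes had a median of 0.13.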

Additional observations from a re-analysis of the deposited data

Results flagged for a closer look

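In 4 of the 34 groups of 4 libraries behind the gene levels and ratios, a single library stood far off the other 3, which by chance happens in about 1 group in 20. Pdgfd had 1.89 CPM in HSC-PCK1-KO replicate 4, against 1.56 to 1.58 CPM in the other HSC-PCK1-KO libraries. It had 1.502 CPM in control replicate 1, against 1.18 to 1.21 CPM in the other control libraries, so the high library of each genotype sets much of its spread. Hgf had 5.94 CPM in control replicate 3, against 7.37 to 7.54 CPM in the other control libraries. The log2 ratio of Kitl to Kit was -1.06 in control replicate 4, against -0.81 to -0.79 in the other control libraries, and still lay above every HSC-PCK1-KO library.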

How the results depend on the processing

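Of 150 log2 fold changes of the 10 genes under 15 alternatives, 147 kept their direction and stayed short of the threshold, and 3 turned. Pdgfa was 0.041 without HSC-PCK1-KO replicate 1 (range over single libraries left out -0.13 to 0.041). Met was -0.034 without HSC-PCK1-KO replicate 4 and -0.027 without control replicate 4 (range -0.034 to 0.095). The count of genes called was 0 by edgeR (370 at an unadjusted p under 0.05), 3 by DESeq2, none of them among the 10 (422 at an unadjusted p under 0.05), and 0 to 1 with 1 library left out. Numbered replicates did not pair, with correlations of same-numbered libraries from -0.33 to 0.06. With the replicate number as a block, 0 genes were called and the log2 fold change of Kitl was -0.64. The Pdgfb to Pdgfrb ratio difference ran from -0.10 to 0.085 with 1 library left out. In the same fits r for Pdgfa and Pdgfra ran from 0.53 to 0.88 (exact permutation, adjusted p from 0.0213 to 0.421), with the threshold missed on leaving out any library but HSC-PCK1-KO replicate 3, that for Pdgfd and Pdgfrb from -0.39 to 0.16 and that for Hgf and Met from -0.026 to 0.50. The cause was not tested. For Pdgfb, Pdgfd and Kitl, all under 3 CPM on average, the SE of 0.15 to 0.29 limits what could be detected.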
